A study of Mus musculus with 41 samples.

Results

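Wild-type (WT) mouse embryonic stem cells of the R1 line were compared after 8 h and after 0 h of α-amanitin, which blocks RNA polymerase II. The comparison takes the 4 WT libraries labelled 8 h and the 4 WT libraries labelled 0 h, 8 of the 41 samples of the series, joined by Ensembl gene identifier. All 8 libraries came from cells grown over 4 days in stem cell medium lacking LIF, the cytokine that holds these cells in self-renewal, and holding 1 µM retinoic acid (RA), a signal that starts their differentiation. On the fourth day the drug was given at 2 µg/ml; the 0 h cells were harvested at the start of that exposure. The series also holds Caprin1 knockout (KO) cells and RNA immunoprecipitations, which enter here only where named. Libraries were made from 500 ng of total RNA with a stranded mRNA kit and read on an Illumina NextSeq500. The labels do not say whether replicates were separate cultures, so p-values measure the spread between these libraries, which may be technical.

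The level of a messenger RNA is set by its synthesis and its decay. When RNA polymerase II is blocked, transcripts that are degraded fast are lost first, among them many that encode transcription factors and signalling inhibitors. Transcripts of metabolic and structural proteins are in general long-lived. Normalised counts (CPM, scaled to a common library size) give each transcript's share of the library and not an amount per cell, so a transcript that outlasts the average rises in this scale even if its amount falls. A lower value can also stand for a shorter poly(A) tail in a kit that selects mRNA, and in bulk samples fewer cells of a type and less RNA per cell cannot be told apart. The block of transcription was not measured in these files.

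Total counts were 7240127, 7697174, 7619292 and 8804667 in the 8 h libraries and 3953468, 22182479, 22684394 and 11865771 in the 0 h libraries. Replicates 1 and 2 stood close to each other, as did replicates 3 and 4, at both times: the chi-square per gene was 1.93 and 2.34 within these pairs and 6.88 to 10.8 across them at 8 h, and 3.62 and 2.86 within and 18.7 to 41.4 across them at 0 h. Every marker of the pluripotency, neuroectoderm, endoderm, fibroblast and trophoblast lists reached 0.1 CPM in at least 1 of the 8 libraries. A few reads are enough to meet that bound. The filter on low counts was passed by 33 of 34 pluripotency, 24 of 29 neuroectoderm, 20 of 21 endoderm and 12 of 13 trophoblast markers. In CPM of library totals, the 15 fibroblast markers summed to 1938 to 2172 CPM at 8 h and 1799.6 to 2519 CPM at 0 h, and 12 of them passed the filter on low counts. The 13 trophoblast markers summed to 905 to 953 CPM at 8 h and 871 to 1145 CPM at 0 h. The part of other cell types in the results was not tested.

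A total of 13668 genes passed the filter on low counts. With p-values from edgeR's quasi-likelihood test adjusted by the Benjamini-Hochberg method (FDR) and a threshold of 0.05, 6243 genes were called (45.7%): 2971 were higher at 8 h (21.7% of those tested) and 3272 were lower (23.9%). Most of these changes were small: 94.2% of genes lay within a log2 fold change of -1 to 1, and so did 5454 of the 6243 called genes. The tail of decreases was the longer one. Called genes with a log2 fold change under -1 numbered 568 (4.16%), against 221 over 1 (1.62%), and 48 called genes lay under -2, against 14 genes over 2. Members of lists of RA response and Hox genes made up 12 of the 48. The median over all genes was -0.0019, with quartiles of -0.30 and 0.26. In 6089 genes (44.5%) the values of the 8 libraries did not overlap between the times.

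**Figure D1:**
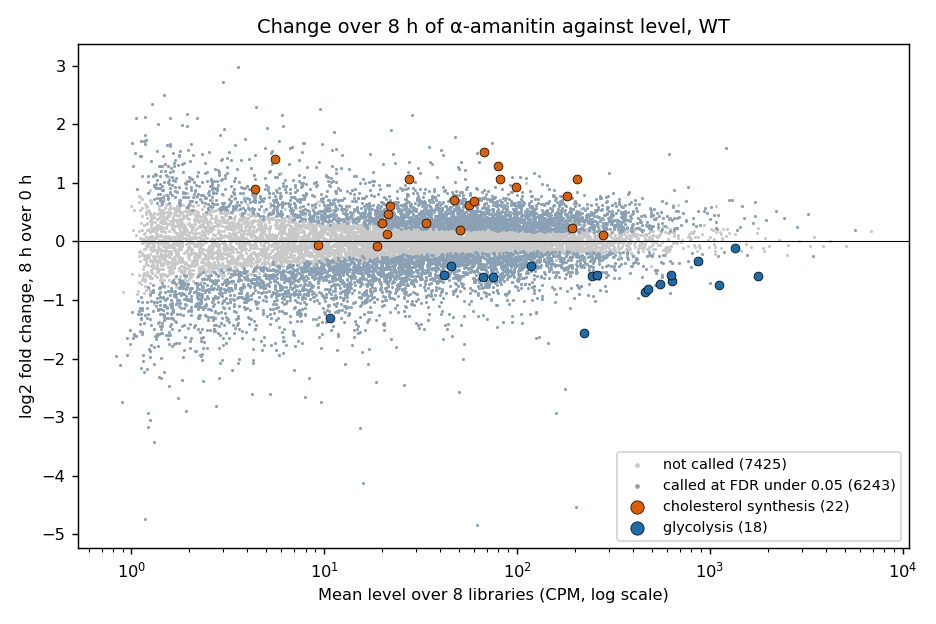
Log2 fold change at 8 h over 0 h (vertical axis) against the mean level over the 8 WT libraries in CPM (horizontal axis, log scale), 1 point per gene tested. Cholesterol synthesis genes (orange) lie mostly above 0, and glycolysis genes (blue) all lie below 0, across the range of levels.

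Dhrs3, a retinaldehyde reductase of RA metabolism, had the lowest log2 fold change of the genes tested. It averaged 4.16 ± 0.314 CPM at 8 h and 120.4 ± 9.67 CPM at 0 h (SD, n = 4 each), a log2 fold change of -4.84. Hoxb1, a patterning gene of the hindbrain, was at -4.12. Over the lists, 25 of 29 RA response genes (86.2%) and 27 of 33 Hox genes (81.8%) fell, against 23.9% of all genes. The genes described next are members of neither list.

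Among annotated genes outside these lists with a mean of at least 5 CPM over the 8 libraries, the largest decrease was that of Ccdc88b (chromosome 19, 6844623 to 6858222 in GRCm38), which encodes a coiled-coil protein. It stood at 1.28, 1.87, 1.33 and 1.39 CPM in the 8 h libraries and 10.1, 10.5, 7.81 and 7.71 CPM in the 0 h libraries. The times did not overlap, and the log2 fold change was -2.60 (SE 0.199, FDR 1.76e-06). Ptpru (chromosome 4, 131768457 to 131838306), a receptor-type tyrosine phosphatase, had 6.24, 7.21, 8.88 and 9.27 CPM at 8 h and 49.1, 49.5, 37.3 and 38.9 CPM at 0 h, a log2 fold change of -2.45 (SE 0.145, FDR 3.15e-07). All 4 libraries at 8 h lay below every 0 h library. Sema6c, a transmembrane semaphorin of axon guidance, had 22.3, 19.3, 21.7 and 18.997 CPM at 8 h and 101, 95.6, 73.01 and 65.7 CPM at 0 h (-2.01, SE 0.138). At 0 h its replicates 1 and 2 stood above replicates 3 and 4, and every 8 h library was below all of them.

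The other genes among the 15 largest decreases had log2 fold changes between -2.33 and -1.74. Aqp3, a channel for water and glycerol, averaged 7.58 ± 1.24 CPM at 8 h and 26.5 ± 4.49 CPM at 0 h. Sdk2, an adhesion molecule of the immunoglobulin superfamily, averaged 24.2 ± 0.694 CPM at 8 h and 82.2 ± 14.2 CPM at 0 h (-1.75). Wfikkn1, a secreted protein that binds growth and differentiation factors, changed by -1.88, and Sfrp5, a secreted Wnt antagonist, by -1.74. Ndufa4l2, a hypoxia-induced protein of mitochondria, had 2.13, 2.14, 4.24 and 2.66 CPM at 8 h and 11.9, 18.6, 11.97 and 12.9 CPM at 0 h. Myh7b (a myosin heavy chain, -1.86), Pacsin1 (an endocytic membrane-bending protein, -1.77), Qprt (an enzyme of NAD synthesis, -1.74) and Aire (a transcriptional regulator, -1.85) fell as well. So did Fam167a (-2.19), Mpped2 (-1.81) and Tmem200b (-1.79).

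By the same rule, the largest increase was that of Plxna4 (chromosome 6, 32144543 to 32588192), a receptor for semaphorins. It had 15.3, 18.4, 14.97 and 13.9 CPM at 8 h and 3.55, 3.22, 3.43 and 2.95 CPM at 0 h, with no overlap and a log2 fold change of 2.26 (SE 0.134, FDR 3.15e-07). Ptgs2 (chromosome 1, 150100031 to 150108234), the inducible cyclooxygenase of prostaglandin synthesis, had 46.4, 49.1, 37.9 and 52.8 CPM at 8 h and 9.12, 7.79, 12.3 and 12.1 CPM at 0 h (2.16, SE 0.153, FDR 9.99e-07). Every 8 h library stood more than 3-fold above every 0 h library.

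Other genes among the 15 largest increases follow. Plaur, the urokinase receptor, averaged 73.5 ± 8.37 CPM at 8 h and 21.9 ± 3.03 CPM at 0 h (1.78). Emp1, a tetraspan membrane protein, averaged 113 ± 8.05 CPM at 8 h and 34.9 ± 7.21 CPM at 0 h (1.68). The cadherin genes Cdh10 (1.97) and Pcdh17 (1.62), the interleukin 6 receptor gene Il6ra (1.66) and Grem1 (1.68), a secreted antagonist of bone morphogenetic proteins (BMPs), rose. Id4, which encodes an inhibitor of basic helix-loop-helix factors, had 16.6, 17.6, 16.03 and 20.2 CPM at 8 h and 5.32, 3.49, 5.88 and 5.01 CPM at 0 h (1.86). Irs4 (an adaptor of the insulin receptor, 2.16), Gch1 (the first enzyme of tetrahydrobiopterin synthesis, 1.69), Kctd12 (1.61), Mgat4c (1.94) and Ttn (1.72) rose as well.

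These directions were also read in libraries labelled Caprin1 KO, 4 at 8 h and 3 at 0 h from clones 2 and 4, which share no library with the WT comparison. All 15 of the largest decreases and all 15 of the largest increases had the same sign there, and 15 and 14 of them were called in that direction. Of 505 genes, RA and Hox members included, that fell by more than 1 on the log2 scale in WT and were also tested in KO, 98.2% had the same sign, and of 199 that rose by more than 1, 94.5% did. Over all 13407 genes tested in both, 74.9% had the same sign. Called in KO in the WT direction were 76.2% of the 505, 68.8% of the 199 and 35.2% of all 13407 genes. Whether the sizes differ between genotypes was not tested.

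**Figure D2:**
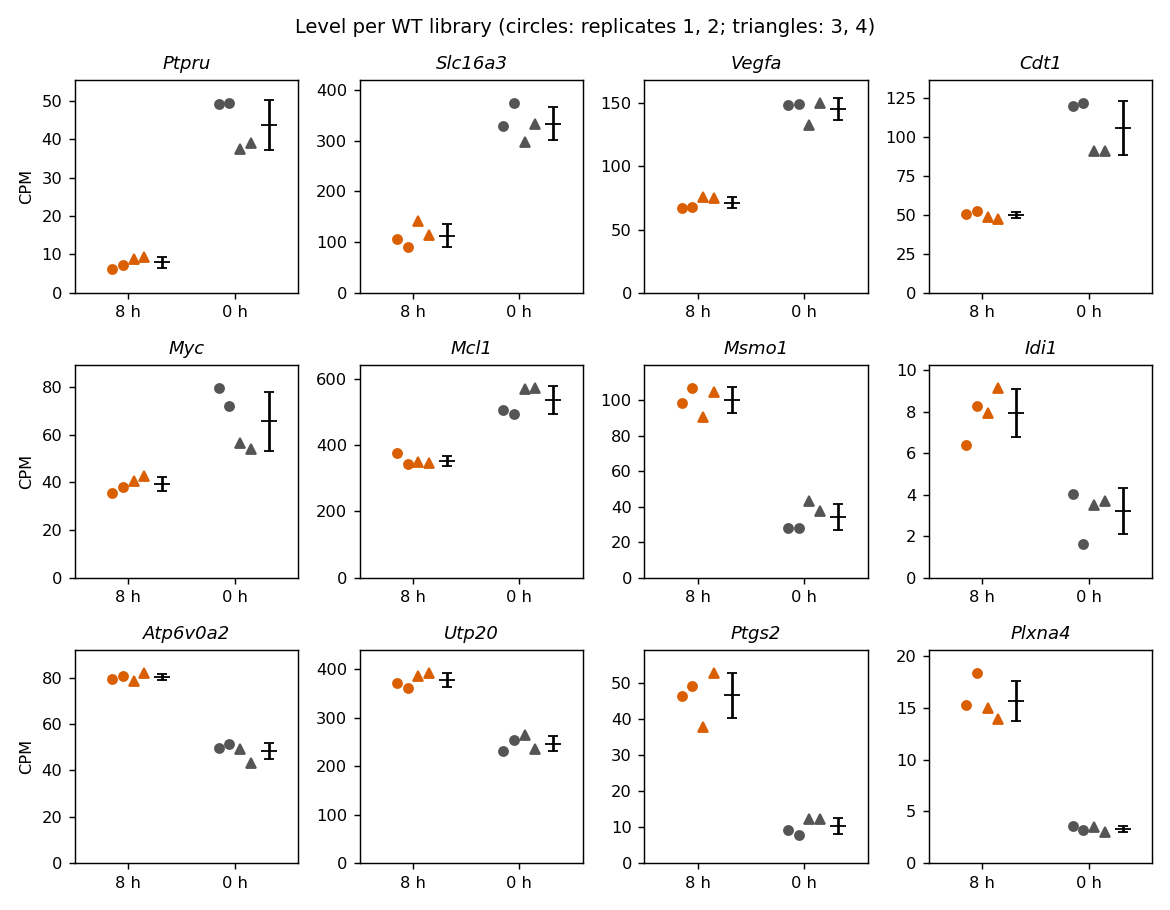
Level in CPM of 12 genes in each WT library at 8 h (left, orange) and 0 h (right, grey), with mean and SD beside the points (n = 4 each). Circles are replicates 1 and 2, and triangles are replicates 3 and 4. The 12 were picked from the genes named in the text. The times do not overlap in any of them, from Ptpru (lower at 8 h) to Plxna4 (higher at 8 h), nor in 44.5% of all genes tested.

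Glycolysis splits glucose into pyruvate and yields ATP without oxygen. Of the 18 tested genes of glucose uptake, glycolysis and lactate export, 17 fell, against the 23.9% of all genes that fell. Their median log2 fold change was -0.60, with members between -1.57 and -0.11. The list summed to 7204 ± 385 CPM at 8 h and 10689 ± 808 CPM at 0 h (SD, n = 4 each), and the sums of the 8 libraries did not overlap. Slc16a3 (chromosome 11, 120948484 to 120959000), the lactate exporter MCT4, changed most: it had 106, 89.3, 142 and 113 CPM at 8 h and 329, 375, 297 and 334 CPM at 0 h (-1.57, SE 0.121, FDR 1.89e-06). Aldoc, an aldolase isoform, followed with 6.18 ± 1.38 CPM at 8 h and 15.2 ± 1.52 CPM at 0 h (-1.31). Gapdh, often used as a reference gene, averaged 772 ± 15.8 CPM at 8 h and 972 ± 119 CPM at 0 h, a log2 fold change of -0.33 (SE 0.0817, FDR 0.00546). Slc2a3, a glucose transporter, was the member that did not pass the test (1292 ± 92.6 CPM at 8 h and 1394 ± 190.0 CPM at 0 h, -0.11).

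Genes of the response to low oxygen, a list added after the values were seen and sharing Slc16a3 with the glycolysis list, fell alongside. Of 20 tested, 16 were lower (80.0%, against 23.9% of all genes), and the median was -0.70. Hypoxia-inducible factor (HIF) activates genes of this response when oxygen is scarce, and the list also holds Hif1a, a gene of the factor itself. Vegfa, the blood vessel growth factor, had 67.1, 67.7, 75.5 and 75.1 CPM at 8 h and 149, 149, 133 and 151 CPM at 0 h (-1.03, SE 0.0725). Bhlhe40, a repressor of the circadian and hypoxia responses, averaged 27.8 ± 4.73 CPM at 8 h and 74.3 ± 5.80 CPM at 0 h (-1.42). The transcript of the factor itself went the other way: Hif1a averaged 224 ± 6.61 CPM at 8 h and 131 ± 20.8 CPM at 0 h (0.77, SE 0.0986, FDR 7.10e-05). It was the 1 member of this list that rose.

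Promoters of 3 members that fell are shown with the core of the HIF element, ACGTG. RefSeq windows from 250 bases before to 50 bases after annotated starts (GRCm38.p6) were searched for it on both strands; the letters also occur inside the E-box CACGTG. It was present in 12 of the 26 windows of 17 glycolysis genes (46.2%) and in 14 of the 22 windows of 16 hypoxia genes (63.6%), against 25.2% of the 13355 windows of genes tested. The share was 42.1% in the lysosome list and 35.3% in the vacuolar ATPase list. It was 34.3% in cytosolic ribosomal proteins, 31.4% in DNA replication and 30.2% in ribosome biogenesis. These lists, described further on, differ in their direction of change. Whether the element bears on the changes was not tested. Of the 17 glycolysis genes 11 held it and the other 6 did not, and Hif1a, which rose, held it. A match is a description of letters and not of a bound site. The 250 bases before the start follow for Slc16a3 and for 2 genes that were not named by the rule for named genes, Ldha (lactate dehydrogenase, -0.75) and Bnip3 (a mitophagy receptor, -1.49). Capitals mark ACGTG or its reverse complement CACGT.
Slc16a3 (chr11:120948817-120949066, plus strand): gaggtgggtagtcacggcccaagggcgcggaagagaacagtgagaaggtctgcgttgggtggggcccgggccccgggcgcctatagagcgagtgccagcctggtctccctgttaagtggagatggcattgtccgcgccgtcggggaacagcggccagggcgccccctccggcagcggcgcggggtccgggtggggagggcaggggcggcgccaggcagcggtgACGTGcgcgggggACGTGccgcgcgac
Ldha (chr7:46845554-46845803, plus strand): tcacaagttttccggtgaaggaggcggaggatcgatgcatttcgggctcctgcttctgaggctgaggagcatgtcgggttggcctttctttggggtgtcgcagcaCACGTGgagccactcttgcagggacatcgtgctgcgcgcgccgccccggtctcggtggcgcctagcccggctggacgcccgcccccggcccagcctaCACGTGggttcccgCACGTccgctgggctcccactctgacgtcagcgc
Bnip3 (chr7:138909507-138909756, minus strand): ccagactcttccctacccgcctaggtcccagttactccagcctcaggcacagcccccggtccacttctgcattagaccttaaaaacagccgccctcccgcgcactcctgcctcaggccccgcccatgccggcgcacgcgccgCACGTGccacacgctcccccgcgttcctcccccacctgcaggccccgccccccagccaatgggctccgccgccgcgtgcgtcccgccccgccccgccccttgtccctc
In Slc16a3 the matches begin 27 and 14 bases before the start, in Ldha CACGTG stands at 2 places and CACGT at 1, and in Bnip3 CACGTG stands at 1. The Slc16a3 start used here, and the bases shown before it, lie inside the gene span given above. For Ldha, 1 of 2 windows held the motif.

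Genes of the cholesterol synthesis list formed the group with the highest median. Their transcripts are known to be made under the control of SREBP2, a factor released when membrane sterols are low. Of 22 tested, 16 rose, against the 21.7% of all genes that rose, and the other 6 did not pass the test. The median log2 fold change was 0.65, and the list summed to 1923 ± 98.3 CPM at 8 h and 1241 ± 22.7 CPM at 0 h (SD, n = 4 each), with no overlap of the 8 sums. Msmo1, a sterol demethylase of the lanosterol route, had 98.3, 107, 90.5 and 104 CPM at 8 h and 27.9, 28.3, 43.2 and 37.5 CPM at 0 h (1.52, SE 0.128, FDR 3.39e-06). Idi1, isopentenyl diphosphate isomerase, had 6.38, 8.27, 7.95 and 9.15 CPM at 8 h and 4.05, 1.61, 3.52 and 3.69 CPM at 0 h (1.41, SE 0.242, FDR 5.79e-04). Both were higher in all 4 libraries at 8 h than in any at 0 h. Hmgcs1, an early enzyme of the pathway, was picked out after its values were seen: it had 276, 291, 255 and 292 CPM at 8 h and 128, 100.3, 144 and 159.7 CPM at 0 h (1.07).

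The promoter of Hmgcs1 is shown as the cholesterol gene whose window holds the sterol element, searched as TCACNCCAC on both strands. It occurred in 1 of 19 windows of 16 cholesterol genes (5.26%), against 1.18% of windows of genes tested. In the glycolysis list, which fell, it occurred in 2 of 26 windows (7.69%). Capitals mark the match.
Hmgcs1 (chr13:119690101-119690350, plus strand): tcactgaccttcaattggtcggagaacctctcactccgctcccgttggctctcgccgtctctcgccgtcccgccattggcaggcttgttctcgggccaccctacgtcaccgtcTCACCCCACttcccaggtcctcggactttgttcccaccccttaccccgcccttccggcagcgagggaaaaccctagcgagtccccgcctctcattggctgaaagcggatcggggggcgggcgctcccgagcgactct
Fatty acid synthesis genes, added after the values were seen, did not move as a block: 5 of 13 rose (38.5%) and 3 fell (23.1%). Over all genes 21.7% rose and 23.9% fell. Me1 (malic enzyme, 0.63) rose, and Acss2 (acetyl-CoA synthetase, -0.56) and Fads1 (a fatty acid desaturase, -0.41) fell.

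The vacuolar ATPase, the proton pump that acidifies lysosomes and endosomes, also rose. Of 19 tested subunit and accessory genes, 12 were higher (63.2%, against 21.7% of all genes) and the other 7 did not pass the test, with a median of 0.34. Atp6v0a2, a subunit of the membrane sector, had 79.7, 80.7, 78.8 and 82.2 CPM at 8 h and 49.9, 51.4, 49.4 and 43.4 CPM at 0 h (0.73, SE 0.0730). Atp6v1h, a subunit of the cytosolic sector, averaged 113 ± 4.02 CPM at 8 h and 68.2 ± 8.81 CPM at 0 h (0.72). Lysosomal enzymes and membrane proteins were mixed, with 6 higher and 4 lower of 24; the count of lower ones ranged from 1 to 3 over fits that left out 1 library each, at 1 without 8 h replicate 2 or 3 and at 2 without 8 h replicate 1 or 4 or 0 h replicate 1. The protease gene Ctsl averaged 1761 ± 73.4 CPM at 8 h and 1159 ± 154 CPM at 0 h (0.60), and the membrane protein gene Cd63 242 ± 7.27 CPM at 8 h and 144 ± 9.24 CPM at 0 h (0.74).

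Ribosome biogenesis takes place in the nucleolus and needs many processing factors. Of 40 such genes, 23 rose (57.5%, against 21.7% of all genes) and 3 fell, with a median of 0.25. They summed to 6921 ± 115 CPM at 8 h and 5759.7 ± 58.5 CPM at 0 h. Utp20, a component of the small subunit processome, had 371, 362, 386 and 393 CPM at 8 h and 232, 253, 265 and 236 CPM at 0 h (0.62, SE 0.0662). Rrp12 averaged 67.1 ± 5.22 CPM at 8 h and 42.9 ± 4.65 CPM at 0 h (0.65), and Ncl, nucleolin, 2199 ± 51.9 CPM at 8 h and 1708 ± 95.2 CPM at 0 h (0.36). Rrp1 (-0.47) and Rrp1b (-0.40), which encode related nucleolar proteins, fell.

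Cytosolic ribosomal proteins are the protein components of the ribosome. Of 78 tested, 30 fell (38.5%, against 23.9% of all genes) and 2 rose, with a median of -0.17; 69 had a log2 fold change below 0. Rpl27a averaged 238 ± 7.76 CPM at 8 h and 354 ± 42.9 CPM at 0 h (-0.57). The count of lower genes was 15 to 17 when any 8 h library was left out and 19 without 0 h replicate 2. These shares of the list are near those of all genes in the same fits. There, 2757 to 2831 of 13713 to 14003 genes were lower without an 8 h library, and 3020 of 13670 without 0 h replicate 2. The number of ribosomal protein genes that rose was 0 or 1 without any 8 h library or 0 h replicate 1 or 2. These genes have many processed copies in the genome, and how the authors counted reads that match several copies is not given in the sources used here.

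Of 42 translation factors 14 rose (33.3%, against 21.7% of all genes) and 3 fell (7.1%, against 23.9%), with a median of 0.10. The number lower was 1 without 8 h replicate 2 or 4. Eif4g2, a scaffold of translation initiation, averaged 2584 ± 73.03 CPM at 8 h and 1813 ± 186 CPM at 0 h (0.51). Eif5, which acts in start codon selection, changed by 0.47, and Eef2, an elongation factor, by -0.24. Among tRNA synthetases 7 of 22 rose (31.8%), and Vars, the valine enzyme, fell (-0.54). In the proteasome, 9 of 37 subunits rose (24.3%, near the 21.7% of all genes), among them Psmd14 (0.57, 150.4 ± 11.7 CPM at 8 h and 101 ± 17.9 CPM at 0 h) and Psma3 (0.51). The 2 that fell, named after their values were seen, were the low-level subunit genes Psma8 (-1.21) and Psmb9 (-1.09). Of 29 chaperones, 9 rose and 5 fell. Those that rose include Cct6a (0.43) and Tcp1 (0.33) of the chaperonin that folds tubulin and actin and the co-chaperone Dnaja1 (0.49), and Pdia4 of the endoplasmic reticulum fell (-0.48). The number of chaperones lower was 3 without any 1 of 6 libraries, the 4 at 8 h and replicates 3 and 4 at 0 h, and the number higher was 6 without 8 h replicate 3.

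Of 31 tubulin, actin and actin-binding genes, 15 rose (48.4%, against 21.7% of all genes), and the list summed to 15798 ± 462 CPM at 8 h and 12708 ± 933 CPM at 0 h. Actb, β-actin, averaged 3764 ± 319.8 CPM at 8 h and 2723 ± 355 CPM at 0 h (0.47, SE 0.0942). Tubb3, a β-tubulin of neurons, had 37.02, 37.2, 39.6 and 40.4 CPM at 8 h and 24.3, 22.9, 22.02 and 18.95 CPM at 0 h (0.82), and Myl12a, a myosin light chain, changed by 0.80. Tuba4a fell (-0.54). Of 26 basement membrane genes 3 were higher (11.5%) and 9 lower (34.6%, against 23.9% of all genes). Nid1 (0.49) and Fn1, fibronectin (0.44), rose, and Col18a1 (-0.71) and Agrn, agrin (-0.61), fell.

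Mitochondrial genes encoded in the nucleus changed little. Of 77 mitochondrial ribosomal protein genes 12 rose (15.6%) and 7 fell (9.1%), with a median of 0.02. Of 75 nuclear genes of the respiratory chain 4 rose (5.3%) and 11 fell (14.7%), with a median of -0.09. Over all genes 21.7% rose and 23.9% fell. With 1 library left out, the first list gave 5 to 14 higher and 3 to 10 lower, and the second 0 to 5 higher and 5 to 14 lower. The lowest counts of higher genes came without 8 h replicate 3 in the first list (5) and without 8 h replicate 4 in the second (0). In the citric acid cycle 6 of 17 rose (35.3%), among them Dld, a dehydrogenase subunit shared by its complexes (0.47), and Cs, citrate synthase (0.26). The 7 tested transcripts encoded in mitochondria, which are made by another polymerase, had a median of 0.24. None of the 7 was called by edgeR or by DESeq2, and 1 had an unadjusted p under 0.05 in edgeR. They summed to 6718 ± 1167 CPM at 8 h and 5579 ± 1714 CPM at 0 h (SD, n = 4 each), and the libraries of the 2 times overlapped. The median was 0.72 between the libraries of replicates 1 and 2 and -0.12 between those of replicates 3 and 4. In a fit of all 16 WT libraries the medians of these 7 were 0.57 at 2 h and 1.01 at 4 h. There, 4 were higher at 2 h and 6 at 4 h, against 13.0% and 25.1% of all genes.

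**Figure D3:**
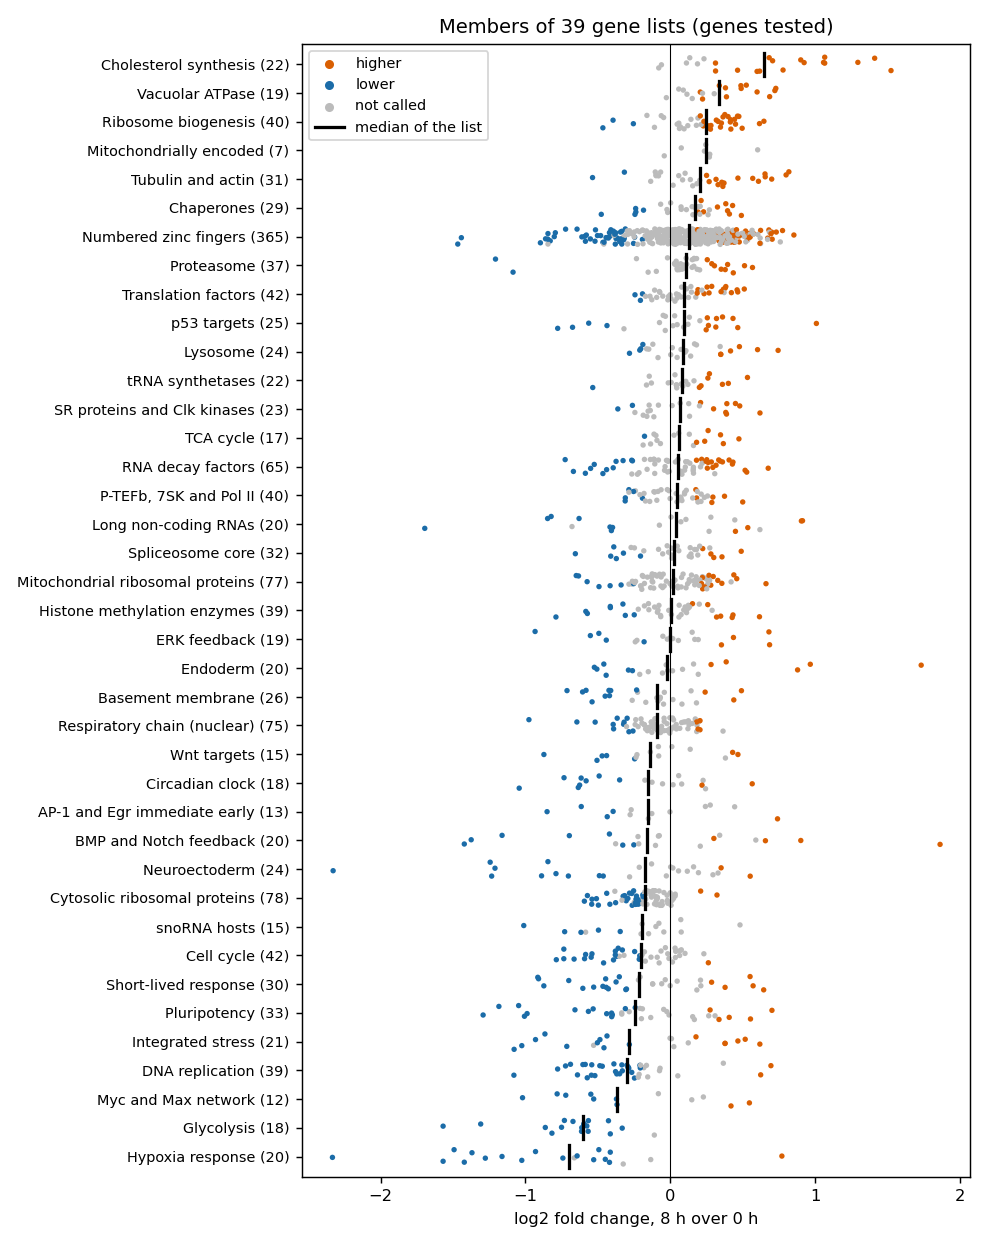
Log2 fold change at 8 h over 0 h of each tested member (points) of 39 gene lists, ordered by median (black bars), with the number of tested members in parentheses. Orange members rose, blue ones fell and grey ones did not pass the test; cholesterol synthesis has the highest median (0.65) and the hypoxia response the lowest (-0.70).

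DNA replication genes fell. They encode the licensing factors, helicase subunits and polymerases that copy the genome in S phase. Of 39 tested, 27 were lower (69.2%, against 23.9% of all genes) and 35 had a log2 fold change below 0, with a median of -0.30. The list summed to 3497 ± 43.2 CPM at 8 h and 4364 ± 150.1 CPM at 0 h, with no overlap. Cdt1 (chromosome 8, 122568015 to 122573130), which loads the helicase onto origins, had 50.6, 52.6, 48.9 and 47.6 CPM at 8 h and 119.8, 122, 91.1 and 90.8 CPM at 0 h (-1.08, SE 0.107, FDR 1.14e-05). Pold1, the catalytic subunit of polymerase δ, averaged 49.7 ± 4.29 CPM at 8 h and 85.7 ± 15.2 CPM at 0 h (-0.78), and Mcm2, a helicase subunit, 211 ± 5.77 CPM at 8 h and 265 ± 21.6 CPM at 0 h (-0.33). The origin recognition subunit Orc2 rose (0.62).

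Cell cycle genes fell in 18 of 42 cases (42.9%, against 23.9% of all genes), with a median of -0.20. E2f1, a transcription factor of S phase entry, averaged 18.9 ± 1.21 CPM at 8 h and 33.6 ± 8.24 CPM at 0 h (-0.79), and Ccnb2, a mitotic cyclin, 78.3 ± 4.44 CPM at 8 h and 130.1 ± 7.75 CPM at 0 h (-0.74). Cdkn1c, an inhibitor of cyclin-dependent kinases, rose by a log2 fold change of 0.26. The linker histone gene H1f0, whose mRNA is polyadenylated, averaged 134 ± 4.97 CPM at 8 h and 262 ± 27.99 CPM at 0 h (-0.96). None of the 9 replication-dependent histone genes in the tables passed the filter on low counts.

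Transcripts of growth factor response and feedback are known for fast decay. At 8 h few of them had changed by much, and their course over the exposure was not one of steady loss. The 13 tested genes of the AP-1 and Egr families and their immediate early relatives had median log2 fold changes of 1.79 at 2 h, 1.44 at 4 h and -0.15 at 8 h in a fit of all 16 WT libraries. These comparisons share the 0 h libraries. In the 8 h comparison alone, 4 of the 13 were lower (30.8%, against 23.9% of all genes) and 1 was higher (7.7%, against 21.7%). Without 0 h replicate 1 or 2, 3 were higher. Maff, a small Maf factor, was at 2.95 at 2 h, 3.14 at 4 h and 0.75 at 8 h, and it averaged 18.5 ± 1.87 CPM at 8 h and 11.3 ± 1.81 CPM at 0 h. Jund, an AP-1 subunit, was at 0.41, 0.58 and -0.84 at 2, 4 and 8 h, with 31.5, 36.7, 32.7 and 32.1 CPM in the 8 h libraries and 77.2, 65.1, 50.2 and 51.4 CPM in the 0 h libraries.

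A list of 30 other short-lived response genes had the same shape, with medians of 0.85 at 2 h, 0.60 at 4 h and -0.21 at 8 h. At 8 h 14 were lower (46.7%, against 23.9% of all genes) and 5 higher (16.7%, against 21.7%). Mcl1, an anti-apoptotic protein with a short-lived mRNA, had 375, 343, 349 and 345 CPM at 8 h and 507, 495, 571 and 573 CPM at 0 h (-0.60, SE 0.0704, FDR 3.77e-05). In the fit of 16 libraries its log2 fold change was 0.03 at 2 h, -0.0030 at 4 h and -0.60 at 8 h. Socs3, an inhibitor of cytokine signalling, was at -1.25, -1.28 and -0.91 at 2, 4 and 8 h, and Ier3 at -0.70, -0.67 and -0.91. Klf6, a zinc finger factor, was at 1.87, 1.91 and 0.57.

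**Figure D4:**
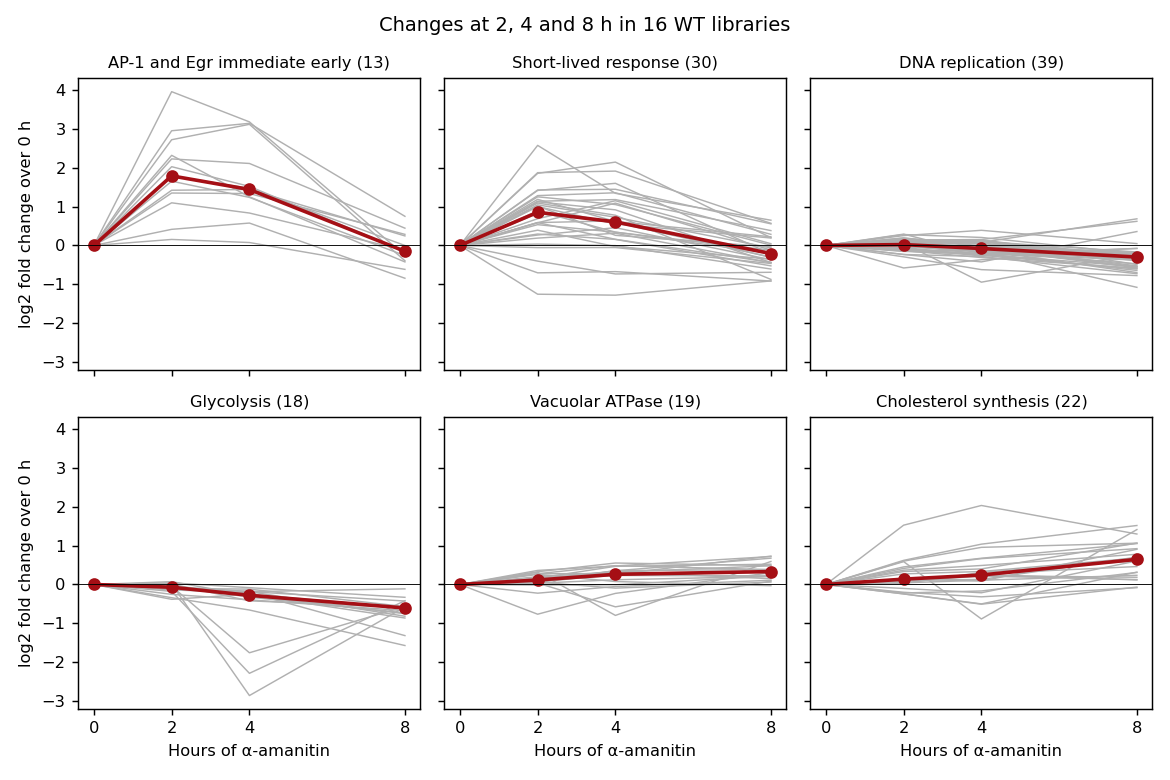
Log2 fold change over 0 h (vertical axis) at 2, 4 and 8 h of α-amanitin (horizontal axis) in the fit of 16 WT libraries, which share the 0 h libraries. Grey lines are members and the red line is their median; immediate early genes peak at 2 h (median 1.79), and glycolysis falls to -0.60 and cholesterol synthesis climbs to 0.65 at 8 h. At 4 h a set of 37 genes has a far lower level in CPM than at any other time. The 4 h point of Gapdh (-5.92) is therefore not drawn, and the low 4 h points of other glycolysis genes come from the same libraries.

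The 4 h libraries need a caution. There, 37 genes with more than 20 CPM in every other WT library lay under an eighth of their lowest level elsewhere, 25 of them ribosomal protein genes, and 36 did so in the KO libraries too. In CPM of library totals, Rpl3 had 12.1 to 16.8 CPM in WT at 4 h, against 554 to 597 CPM at 8 h and 542 to 704 CPM at 0 h. No gene met the same rule at 0, 2 or 8 h, and no 4 h library enters the comparison of 8 h with 0 h.

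Of the Myc and Max network 7 of 12 genes fell (58.3%, against 23.9% of all genes), with a median of -0.37. Myc, a driver of cell growth, had 35.6, 38.3, 40.5 and 42.5 CPM at 8 h and 79.8, 71.9, 56.5 and 54.2 CPM at 0 h (-0.72, SE 0.120, FDR 4.77e-04), after 1.10 at 2 h and 1.17 at 4 h. Mnt, a repressor that competes with it for Max, changed by -1.02 at 8 h, after 0.91 and 1.05. Mycn averaged 65.7 ± 3.81 CPM at 8 h and 96.95 ± 11.4 CPM at 0 h (-0.55), and Mga (0.42) and Mxd1 (0.55) rose.

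Of 19 ERK feedback genes 4 were higher (21.1%) and 5 lower (26.3%) at 8 h, near the 21.7% and 23.9% of all genes. Their medians were 0.58, 0.72 and 0.01 at 2, 4 and 8 h. Dusp4, an ERK phosphatase, was at 2.10, 2.52 and 0.69. Spsb1, a ubiquitin ligase adaptor, averaged 47.1 ± 2.86 CPM at 8 h and 90.3 ± 11.02 CPM at 0 h (-0.93). BMP and Notch feedback genes gave 4 higher (20.0%) and 7 lower (35.0%) of 20: besides Id4, the Notch ligand gene Jag1 rose (0.90). Wnt targets gave 2 higher (13.3%) and 5 lower (33.3%) of 15. The Wnt antagonist gene Dkk1 rose (0.47), and the feedback inhibitor gene Nkd1 (-0.51) and the receptor gene Fzd7 (-0.47) fell.

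Circadian clock genes fell in 8 of 18 cases (44.4%, against 23.9% of all genes). They rose in 2 (11.1%, against 21.7%), or in 1 without 0 h replicate 2 or without 8 h replicate 2 or 3. The activator Clock averaged 57.9 ± 3.68 CPM at 8 h and 38.9 ± 6.16 CPM at 0 h (0.57), and the repressor Per3 changed by -0.63 and the output factor Tef by -0.62. Of 25 p53 targets 9 rose (36.0%) and 4 fell (16.0%). Rrm2b, the ribonucleotide reductase subunit of DNA repair, had 14.9, 16.1, 15.5 and 15.4 CPM at 8 h and 5.82, 6.58, 7.98 and 9.68 CPM at 0 h (1.01). Cdkn1a, the cell cycle inhibitor p21, changed by 0.31, and Bbc3, the pro-apoptotic PUMA, by -0.78. Integrated stress genes gave 6 higher (28.6%) and 10 lower (47.6%) of 21. Psat1, an enzyme of serine synthesis, was at 0.52 and the transcription factor gene Cebpb at -1.08.

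Zinc finger genes with a number in their symbol, many of them repressors of transposable elements, are the largest list. Of 365 tested, 53 rose and 47 fell, both less than the 21.7% and 23.9% of all genes, and the median was 0.13. The number that rose was 33 to 35 without 8 h replicate 1, 2 or 3. Their median differed between the pairs of libraries, at 0.35 in replicates 1 and 2 and -0.03 in replicates 3 and 4. At 2 h and 4 h the medians were -0.23 and -0.31. Zfp36l3, a relative of an mRNA decay activator, averaged 7.89 ± 1.11 CPM at 8 h and 22.2 ± 6.12 CPM at 0 h (-1.44). Zfp174 had 7.38, 8.41, 6.23 and 6.72 CPM at 8 h and 2.79, 4.03, 4.46 and 4.68 CPM at 0 h (0.78), after -1.70 at 2 h and -1.86 at 4 h.

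Among host RNAs of small nucleolar RNAs 5 of 15 fell (33.3%, against 23.9% of all genes) and the other 10 did not pass. Snhg11 averaged 17.98 ± 1.78 CPM at 8 h and 35.9 ± 4.26 CPM at 0 h (-1.01), Zfas1 13.3 ± 1.64 CPM at 8 h and 22.1 ± 0.893 CPM at 0 h (-0.73), and Gas5 51.8 ± 4.67 CPM at 8 h and 65.4 ± 5.74 CPM at 0 h (-0.35). Of 20 other long non-coding RNAs 7 fell (35.0%) and 4 rose (20.0%, near the 21.7% of all genes). The number that rose was 2 without 8 h replicate 2 or 4. Meg3, an imprinted RNA, averaged 207 ± 21.96 CPM at 8 h and 374 ± 27.6 CPM at 0 h (-0.85). Kcnq1ot1, an imprinted nuclear RNA transcribed against Kcnq1, averaged 37.6 ± 8.50 CPM at 8 h and 20.3 ± 0.943 CPM at 0 h (0.91). Whether the counts used strand is not given in the sources used here, so reads of overlapping genes may be mixed. The nuclear RNA Malat1 had 1018, 1208, 427 and 662 CPM at 8 h and 801, 663, 355 and 347 CPM at 0 h. Its difference did not pass the test (0.62, SE 0.409, FDR 0.254), which has no term for the pairs of replicates. Within replicates 1 and 2, and within replicates 3 and 4, both 8 h values lay above both 0 h values.

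Of 23 SR splicing factors and CLK kinases 8 rose (34.8%, against 21.7% of all genes) and 2 fell. The number that rose was 5 without 8 h replicate 1 or 2 or without 0 h replicate 1, and the number that fell was 4 without 0 h replicate 4. Srsf3 averaged 293 ± 19.9 CPM at 8 h and 190.3 ± 36.4 CPM at 0 h (0.62), Luc7l3 changed by 0.48, and Clk2, a kinase of SR proteins, by -0.36. Of 65 RNA decay factors 18 rose, or 11 without 8 h replicate 2, and 12 fell, and these 27.7% and 18.5% are near the 21.7% and 23.9% of all genes. Smg1, the kinase of nonsense-mediated decay, averaged 354 ± 14.9 CPM at 8 h and 221 ± 9.24 CPM at 0 h (0.68), Exosc1 of the exosome changed by 0.53, and the endoribonuclease gene Zc3h12a by -0.73. Of 40 genes of RNA polymerase II, P-TEFb and the 7SK particle 6 rose and 5 fell. The number that fell was 3 without 0 h replicate 1 or without 8 h replicate 2 or 3, and 8 without 0 h replicate 4. Cdk7, a kinase of transcription initiation, rose (0.50), and Supt5, an elongation factor, fell (-0.31). Of 39 histone methylation enzymes 7 rose (17.9%) and 8 fell (20.5%), near the shares of all genes. Among them Kmt5b rose (0.43) and the demethylase gene Kdm6b fell (154 ± 5.24 CPM at 8 h and 266 ± 56.4 CPM at 0 h, -0.79). Caprin1, the gene knocked out elsewhere in the series, averaged 1203 ± 24.7 CPM at 8 h and 951 ± 95.9 CPM at 0 h (0.34, SE 0.0754, FDR 0.00301).

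Markers of cell identity were read as further transcripts of the same cells. Of 33 pluripotency genes 14 fell (42.4%, against 23.9% of all genes) and 5 rose (15.2%, against 21.7%). The number that fell was 9 without 8 h replicate 1, which is closer to the share of all genes in that fit (2765 of 14003 lower). The number that rose was 3 without 8 h replicate 2, 3 or 4. Lefty1, an inhibitor of Nodal, averaged 5.53 ± 0.772 CPM at 8 h and 13.3 ± 2.43 CPM at 0 h (-1.29), and Tdgf1, a Nodal co-receptor, 15.99 ± 3.46 CPM at 8 h and 35.6 ± 8.48 CPM at 0 h (-1.18). The core factors did not pass the test: Pou5f1 had 60.3, 68.7, 76.2 and 76.9 CPM at 8 h and 78.5, 107, 72.4 and 84.2 CPM at 0 h (-0.28, FDR 0.0682), Sox2 was at -0.21 (FDR 0.0656) and Nanog at -0.13 (FDR 0.303). Pou5f1 was called without 0 h replicate 3, and Sox2 without 0 h replicate 2.

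In neuroectoderm, 10 of 24 genes fell (41.7%, against 23.9% of all genes), among them Lhx2 (-1.24). The filament gene Nes rose (0.35, 303 ± 16.8 CPM at 8 h and 238 ± 22.7 CPM at 0 h). In endoderm 5 of 20 rose and 6 fell, shares near the 21.7% and 23.9% of all genes: Lrp2, the endocytic receptor megalin, averaged 841 ± 135 CPM at 8 h and 457 ± 52.2 CPM at 0 h (0.88), and Sox7 changed by -0.52. Of 12 trophoblast genes 1 rose, 3 fell and the other 8 did not pass the test. Tead4 (0.53) was the one that rose, and Tfap2c (-1.004) and Gata3 (-0.67) were among those that fell. Of 12 fibroblast genes 4 rose, 3 fell and the other 5 did not pass the test. Col1a1 fell (-0.58), and Tagln (0.75) and Dcn (0.83) rose.

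**Figure D5:**
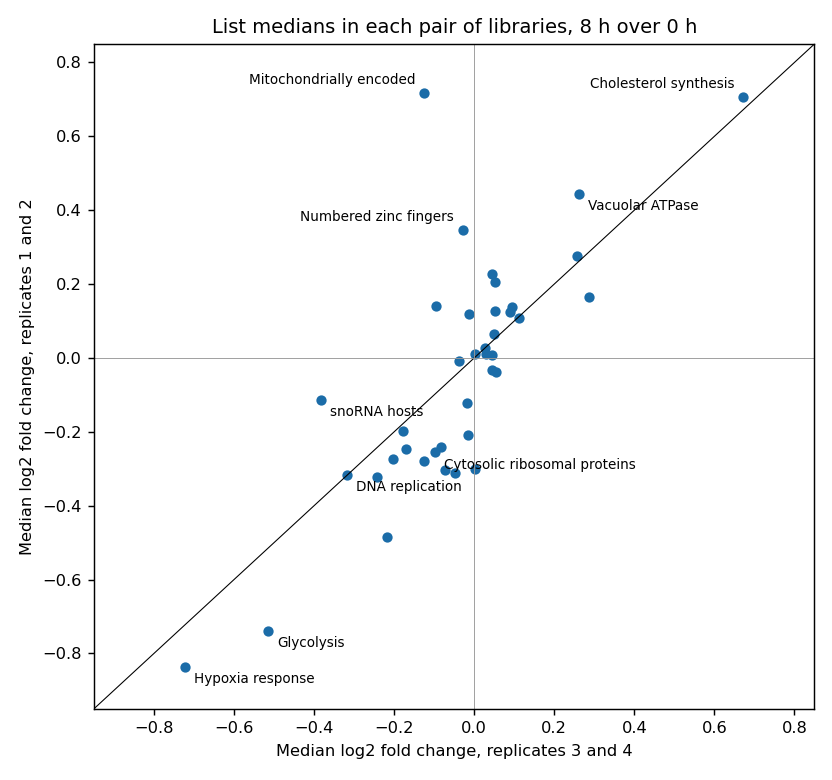
Median log2 fold change of each list at 8 h over 0 h in replicates 1 and 2 alone (vertical axis) against replicates 3 and 4 alone (horizontal axis), with the line of equality. Glycolysis (-0.74 and -0.51) and cholesterol synthesis (0.71 and 0.67) lie on the same side of 0 in both, and mitochondrially encoded transcripts (0.72 and -0.12) do not.

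Properties of the genes themselves went with small shifts. Among 12713 protein-coding genes, the fifth with the lowest levels had a median of -0.24, with 11.01% higher and 31.3% lower, and the fifth with the highest levels had a median of 0.08, with 33.5% higher and 18.4% lower. Genes that span under 5 kb had a median of -0.09 those of 20 to 100 kb a median of 0.03 and those over 100 kb a median of -0.0066, so the median did not rise steadily with span. Of 300 genes annotated as long non-coding RNAs 66 rose and 57 fell (median 0.07). Level and span are tied to each other across genes, and their parts were not separated.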

How the data were processed

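The authors deposited tables of raw counts per gene for α-amanitin at 0, 2, 4 and 8 h, each with 51520 lines; 110 lines with repeated identifiers were dropped, which left 51410. STAR 2.4.0.1, TopHat, Cufflinks, Cuffdiff, DESeq2 and FastQC 0.11.9 are listed, with the builds GRCm38 and mm10, per the submitters' processing notes. How reads were counted, and whether by strand, is not given in the sources read. From these counts, the 8 WT libraries at 8 h and 0 h were fitted without covariates by edgeR 4.0.16 (R 4.3.3): genes were filtered with filterByExpr, scaled by TMM and tested with glmQLFit and glmQLFTest, with robust estimation and Benjamini-Hochberg adjustment over 13668 genes. CPM are TMM scaled except where given as CPM of library totals (marker sums and the 4 h check), and SE is that of the log2 fold change. The 8 h and 0 h counts stand in separate tables, so time and table cannot be told apart. The 2, 4 and 8 h series came from 1 fit of 16 WT libraries. The fit was tested on simulated data.

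The members and lists were chosen with earlier results of these data known. Named genes were the 15 largest called decreases and the 15 largest called increases averaging 5 CPM or more, leaving out predicted, RA, Hox and mitochondrially encoded genes, of which most are named; the 2 members of each list that moved furthest in either direction, with preset anchors; and Caprin1. Other list members named (Ldha, Bnip3 and Hmgcs1) were picked after their values were seen. Alternatives were another scaling, other filters, blocks, DESeq2 1.42.0, thinned counts and leaving out libraries. Promoters came from RefSeq (GRCm38.p6), matched by symbol, as did gene coordinates. Counts limit the precision of low genes, and replicates 1 and 2 differed from replicates 3 and 4.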

Additional observations from a re-analysis of the deposited data

Results flagged for a closer look

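In 14 of 380 sets of 4 libraries 1 library lay far from the other 3 by Dixon's test; chance gives about 1 set in 20. Among genes, Cdh10 had a lowest value of 7.76 CPM at 8 h and of 1.70 CPM at 0 h. At 8 h, Fzd7 had a highest value of 204.6 CPM, Psma3 of 118.6 CPM and Zfp36l3 of 9.54 CPM, and Spsb1 had a lowest value of 42.8 CPM. At 0 h, Ndufa4l2 had a highest value of 18.6 CPM and Tead4 of 31.6 CPM, and Vegfa had a lowest value of 132.7 CPM.

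Among summed lists, the mitochondrially encoded transcripts had a lowest sum of 4981 CPM at 8 h, against 7135 to 7497 CPM in the other 3 libraries. At 0 h the highest sums were 3009 CPM for short-lived response genes, 2585 CPM for mitochondrial ribosomal proteins, 7884 CPM for the respiratory chain and 1589 CPM for neuroectoderm genes.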

How the results depend on the processing

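With all libraries thinned to the shallowest, 3253 genes were called, 1548 higher and 1705 lower. With 1 library left out, 5163 to 6523 were called, 2398 to 3130 higher and 2757 to 3393 lower. DESeq2 called 5944 genes, of which 5639 were shared. Library totals without a scaling factor called 2360 higher and 3811 lower. The replicate numbers did not pair the libraries: deviations of same-numbered libraries correlated between -0.028 and 0.048, and 0 of 4 libraries at 8 h matched their own number best. A fit with the replicate block called 6011 genes, and one with the library pair as a block 6969. No gene given by name in the text changed direction under the alternatives run, and 13 such genes lost their call in 1 alternative each. Another 5 that had not passed the test did so in 15 comparisons. Of 990 list medians under all settings 81 moved by more than the spread between libraries, in 40 of 45 lists, most often with replicates 1 and 2 or replicates 3 and 4 alone. Depth differed from 3953468 to 22684394 counts between the 0 h libraries, and the counts show shares of a library, not amounts per cell.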

Other observations

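Genes grouped by the letters of their symbol gave 85 families with at least 15 tested genes. They were ranked by median after the values were seen, and the 5 lowest and 5 highest follow, beside 23.9% lower and 21.7% higher over all genes. The Sox transcription factors were lowest at -0.51, with 11 of 17 lower, then Unc at -0.43 (9 of 15), Cyp at -0.42 (11 of 20), Col, the collagens, at -0.36 (17 of 34) and Pde, the phosphodiesterases, at -0.34 (10 of 18). RA genes were not left out of these families. The lowest Cyp member was Cyp26b1, a gene of RA clearance (-4.54), and the highest was Cyp1a1 (2.71), with 4 of the 20 higher. The Mfsd transporters were highest at 0.35, with 8 of 15 higher, then Zscan at 0.28 (9 of 20), Kctd at 0.24 (8 of 18), Arl at 0.22 (8 of 23) and Rbm at 0.21 (16 of 35).

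Gm26917, a predicted gene picked after its values were seen, had 1645, 2037, 1519.6 and 2037 CPM at 8 h and 871, 740.4, 456 and 348 CPM at 0 h (1.59, SE 0.251, FDR 6.01e-04). All 4 libraries at 8 h were above every 0 h library.

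Of the genes in the authors' deposited RNA immunoprecipitation list labelled CNT vs RA, 2051 were tested here, of which 34.6% rose and 18.3% fell; of the 2326 tested in the other deposited list, 2I vs RA, 25.5% rose and 26.5% fell; of genes in neither deposited list 20.0% rose and 23.8% fell. Within a common range of levels, 28.6% of genes in either list rose and 23.2% fell, and 28.5% of genes in neither list rose and 19.5% fell. This range was applied to the 2 lists together and not to CNT vs RA alone. Median levels within it still differed, at 95.7 CPM for listed genes and 69.9 CPM for the others.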
